A study of Mus musculus with 16 samples.

Results

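This report concerns 41 genes of the cell cycle and of cell proliferation in the body of the mouse bladder. The members were listed by gene symbol, and a gene entered when a probe whose accession belongs to that symbol was well above background, by the scanner software's own test, on at least 4 of the 16 arrays. By this rule 38 of the 41 genes were measured, among 26781 genes and unnamed transcripts tested in all: 13 of the 14 genes of DNA replication (S phase) and 25 of the 27 genes of mitosis. Probes for Ccne2 (a cyclin of S phase entry), Aurkb (the kinase of the chromosomal passenger complex) and Cenpf (a kinetochore protein) were well above background on 0 arrays. Of the 38, 29 were well above background on all 16 arrays.

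C57BL/6 mice of both sexes were compared at 2 ages: mature mice (MAT) were 12 months old and aged mice (AGED) were 27 to 30 months old. Each of the 4 groups (MAT male, AGED male, MAT female and AGED female) held 4 arrays from 4 mice, with total RNA of the bladder body labelled with Cy3 and hybridised to a 1-colour Agilent mouse array. The labels name no altered gene and no agent in any group, and all mice came from one institute. The bladder body holds urothelium, smooth muscle and connective tissue together, so a level is an average over these cells.

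A cell that divides copies its DNA in S phase and then separates the copies in mitosis. Replication needs the MCM helicase, the clamp PCNA and enzymes that make deoxynucleotides, and the genes for these carry binding sites for E2F factors. Cyclin B with Cdk1 drives entry into mitosis, kinesins and Aurora kinases build the spindle, and Cdc20 with Ube2c directs the destruction of cyclins at its end. Mitotic genes are known for an element called CHR (cell cycle genes homology region), through which the DREAM complex holds them down in resting cells. The urothelium of a healthy adult renews slowly, so few cells of the bladder are dividing at any time.

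RefSeq promoters of GRCm38.p6, from 250 bases before to 50 bases after a gene's start, were found for 34 of the 41 members (36 promoters). The CHR was searched as TTTGAA or TTCGAA, an E2F-type site as TTTGGCGC, TTTCCCGC, TTTCGCGC or TTTGCCGC, and the CCAAT box as CCAAT, all on both strands. A CHR match lay in 18 of 23 mitotic promoters and in 2 of 13 S phase promoters, where 19.2% of all 32851 promoters hold one. An E2F-type match lay in 5 of 13 S phase promoters and in 1 of 23 mitotic promoters, against 2.26% of all promoters. CCAAT was in 19 of 23 mitotic and 9 of 13 S phase promoters, against 37.4% of all. These matches describe the letters and do not show binding in these bladders.

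The 160 bases up to the base before the start are shown for 2 mitotic members whose male groups did not overlap, Cdk1 and Kif11, and for 2 S phase members of the MCM helicase, with CHR and E2F-type matches in capitals. Cdk1 lies on chromosome 10 (chr10:69352913-69353072, minus strand) and Kif11 on chromosome 19 (chr19:37376222-37376381, plus strand). Mcm6 lies on chromosome 1 (chr1:128359706-128359865, minus strand) and Mcm5 on chromosome 8 (chr8:75109349-75109508, plus strand).
Cdk1: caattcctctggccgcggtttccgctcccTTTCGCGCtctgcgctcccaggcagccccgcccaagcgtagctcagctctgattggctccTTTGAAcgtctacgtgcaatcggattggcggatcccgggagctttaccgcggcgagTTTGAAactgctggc
Kif11: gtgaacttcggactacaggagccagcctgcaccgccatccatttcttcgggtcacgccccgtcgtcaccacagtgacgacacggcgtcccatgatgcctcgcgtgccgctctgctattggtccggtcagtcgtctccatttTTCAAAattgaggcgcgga
Mcm6: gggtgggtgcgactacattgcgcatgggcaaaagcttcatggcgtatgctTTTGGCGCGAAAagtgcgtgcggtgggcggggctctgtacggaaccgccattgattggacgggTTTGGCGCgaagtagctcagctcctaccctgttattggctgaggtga
Mcm5: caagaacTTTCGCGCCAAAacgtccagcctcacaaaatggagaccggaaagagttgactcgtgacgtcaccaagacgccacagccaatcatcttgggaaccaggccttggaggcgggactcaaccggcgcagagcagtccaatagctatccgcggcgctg
In Cdk1 the capitals mark an E2F-type match that begins 131 bases before the start and CHR matches at 71 and 15 bases before it. Kif11 holds 1 CHR match, 19 bases before the start and read on the opposite strand. In Mcm6 and Mcm5 the longer run in capitals is a pair of overlapping E2F-type matches, 1 on each strand, and Mcm6 holds a further match 47 bases before its start.

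Levels below are log2 signals less the log2 signal at the 75th percentile of the same array, so that 0 is the 75th percentile and a difference of 1 is 2-fold; levels of different probes are not comparable. A change is the AGED mean minus the MAT mean of the same sex. Directions follow the labels of the arrays, and the study's own gene lists place several genes under the opposite heading. For example, the study lists S100a9 as downregulated in aged mice, and here it was higher in AGED males by 3.08. Which of the 2 holds was not tested. If the labels of the arrays were exchanged between the ages, every direction below would reverse. The smooth muscle markers (7 of 7) and the markers of superficial urothelium (6 of 6) were well above background on every array. Between 52.3% and 68.2% of probes were well above background per array; AGED male 1 was the dimmest, with a 75th percentile of 9.39 against 10.04 to 11.06 on the others. Females were on one slide and males on the other, and on each slide MAT arrays sat in row 1 and AGED arrays in row 2, so sex cannot be told apart from slide, nor age from row.

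In females, all 38 members had a higher mean in AGED than in MAT bladders. The median change was 0.96, which is 1.94-fold, and the median over all genes tested was -0.00256. The mitotic genes had a median change of 1.14 (2.21-fold, range 0.59 to 1.71) and the S phase genes 0.69 (1.62-fold, range 0.05 to 1.25). By limma with Benjamini-Hochberg adjustment over all genes, 0 of the 38 passed an adjusted p under 0.05 with a change of at least 2-fold, where 0.187% of all genes passed. At an unadjusted p under 0.05, 32 of the 38 were higher (10 of 13 S phase and 22 of 25 mitotic), where 4.68% of all genes were. The lowest adjusted p among the members was 0.078. With the t-test that the study's methods name, on the same values, 15 of 38 were higher at an unadjusted p under 0.05 (7.24% of all genes were), 8 of them at least 2-fold (1.02% of all genes), and 0 passed after adjustment. In whole tissue, more of a transcript per cell and more cells that hold it cannot be told apart, nor can the opposite.

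In males the members did not move one way. The median change was -0.26, with 28 of 38 means lower and 10 higher in AGED bladders. The S phase genes were centred near 0 (median -0.07, range -0.38 to 0.77), and the mitotic genes lower (median -0.31, range -1.69 to 0.41). Again 0 of 38 passed the adjusted threshold, where 0.848% of all genes did. At an unadjusted limma p under 0.05, 3 members were lower, all mitotic (8.49% of all genes were lower), and 1 was higher (7.82% of all genes were), so the counts in males are near the background. The t-test of the methods gave the same 3 genes, Cdk1, Cenpa and Kif11, with means at least 2-fold lower at an unadjusted p under 0.05 (1.16% of all genes), and none after adjustment. Of these, Cdk1 was well above background on 1 of the 4 AGED male arrays and Kif11 on 0, so the size of their differences was not measured. With normexp background correction the male medians were 0.07 for the S phase and -0.12 for the mitotic genes, where the median of all genes was 0.118. With array weights the mitotic median was -0.59.

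The fitted age change was higher in females than in males for 36 of the 38 members, with a median difference (female minus male) of 1.33 over all members, 1.53 over the mitotic and 0.72 over the S phase genes. The 2 exceptions were Cdc45 (-0.46) and Rrm2 (-0.12). In the test of the difference, 0 of 38 passed an adjusted p under 0.05 by limma, where 0.149% of all genes did. At an unadjusted p under 0.05, 27 members had a larger change in females, where 5.23% of all genes did. The lowest adjusted p was 0.11, for Cdk1.

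**Figure D1:**
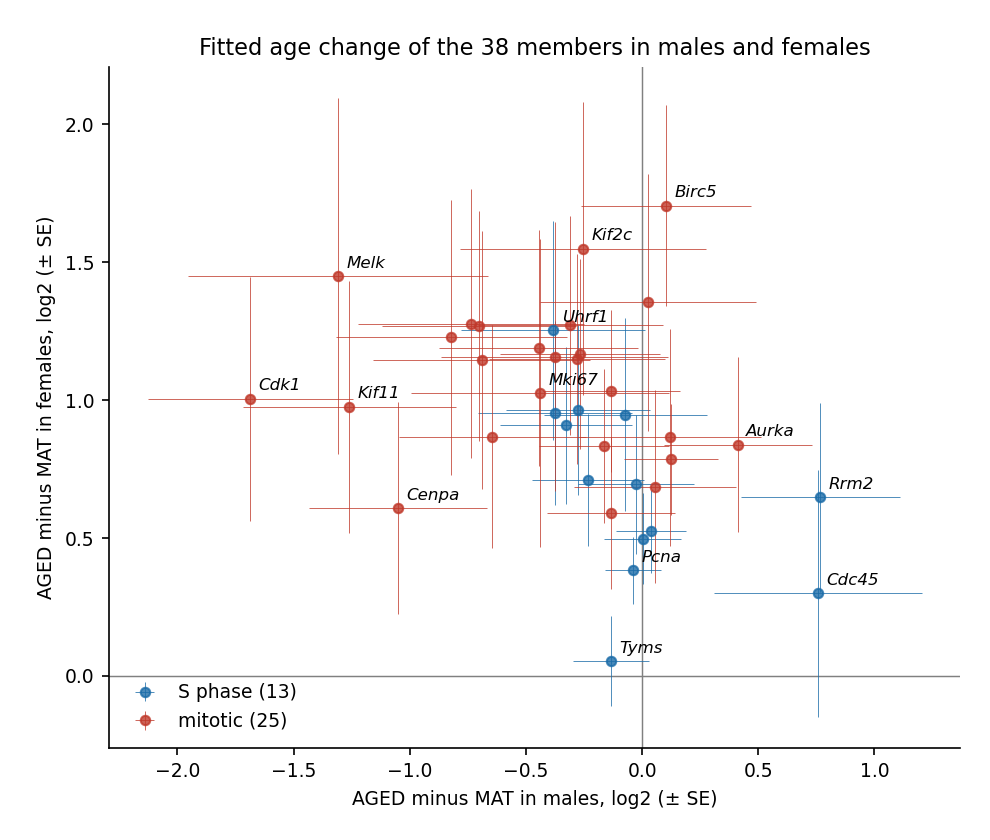
Fitted AGED minus MAT change of the 38 members in males (horizontal axis) and females (vertical axis), both on the log2 scale with bars of 1 SE from limma; blue, S phase genes; red, mitotic genes. All points lie above 0 in females, from 0.05 to 1.71, while in males they run from -1.69 to 0.77.

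The single arrays show that the female difference was uneven. For each array, the members' levels were averaged after taking from each gene its mean over the 16 arrays. For the mitotic genes the 4 AGED female arrays stood at 0.19, 0.72, 0.81 and 2.19, and the 4 MAT female arrays at -0.38, 0.31, -0.13 and -0.21. AGED female 1 thus lay below MAT female 2, and AGED female 4 was far above all others: it gave the highest of 16 values for 24 of the 25 mitotic genes and for 10 of the 13 S phase genes. For the S phase genes the AGED female arrays stood at 0.13, 0.37, 0.47 and 1.11 and the MAT female arrays at -0.25, 0.16, -0.17 and -0.38. AGED female 2, 3 and 4 were each above all 4 MAT female arrays for 25 of 25 mitotic genes, where 32.4%, 17.0% and 34.2% of all genes were. AGED female 1 was so for 9 of 25, near the 36.2% of all genes.

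In males the mitotic mean was -0.37, -0.25, 0.19 and -0.45 on the MAT arrays and -0.06, -0.64, -1.43 and -0.49 on the AGED arrays. AGED male 3 was lowest, with the lowest of 16 values for 18 of the 25 mitotic genes but for only 1 of the 13 S phase genes. The S phase mean ran from -0.39 to 0.13 on MAT male and from -0.32 to -0.08 on AGED male arrays, which overlap.

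**Figure D2:**
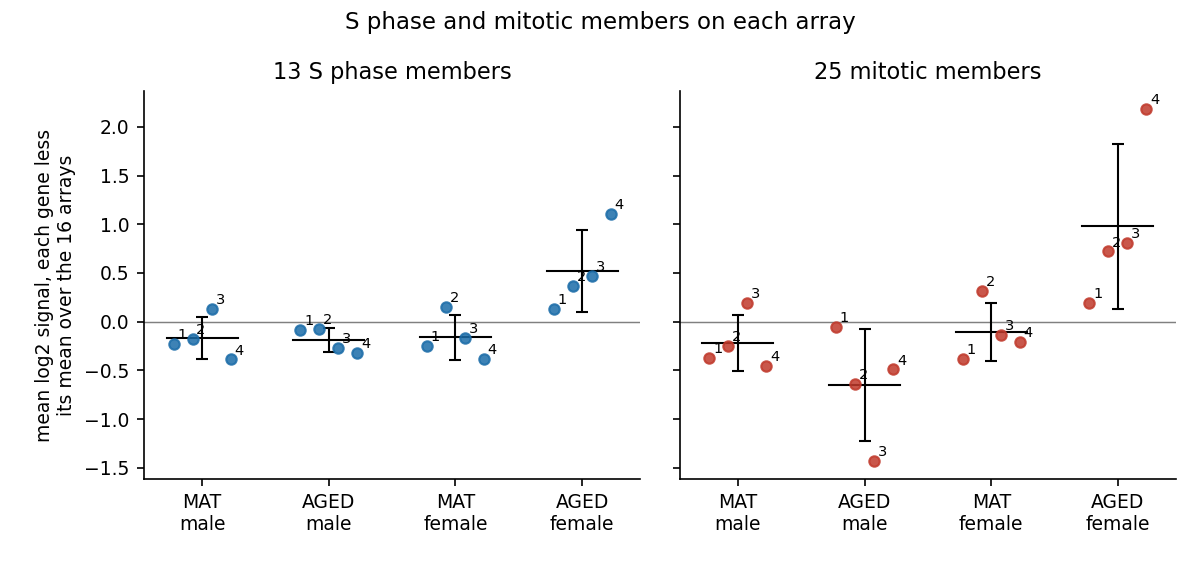
Mean log2 signal of the 13 S phase members (left) and the 25 mitotic members (right) on each array, each gene less its mean over the 16 arrays. Points are arrays numbered by replicate, long bars are group means and error bars are SD over 4 arrays. AGED female 4 stands at 1.11 and 2.19 and AGED male 3 at -1.43 in the mitotic genes.

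Leaving out AGED female 4 lowered the female median change to 0.68 for the mitotic genes and to 0.39 for the S phase genes, with all 38 still above 0, and 19 rather than 32 members then were higher at an unadjusted p under 0.05 (3.72% of all genes). Leaving out AGED male 3 brought the male median of the mitotic genes from -0.31 to -0.08, while leaving out AGED male 1 took it to -0.61. Each sex fitted alone, which is each slide alone, gave 27 members higher at an unadjusted p under 0.05 in females (7.19% of all genes) and 3 lower in males, which is near the 5.91% of all genes.

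**Figure D3:**
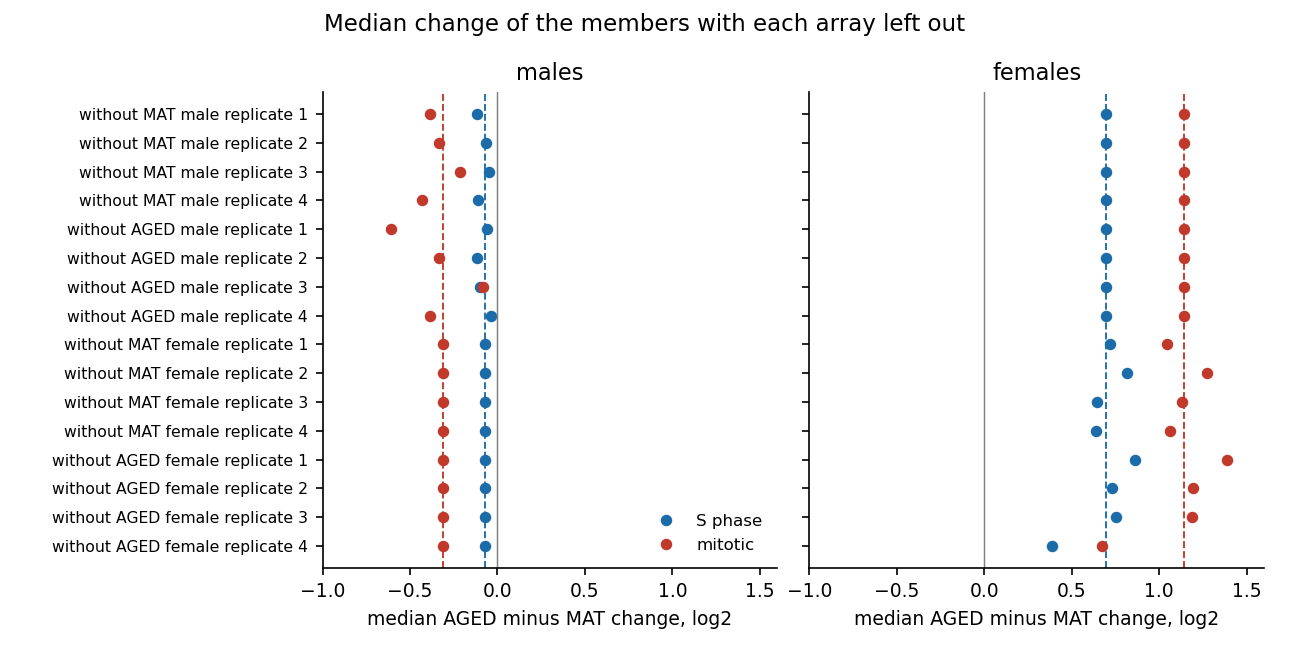
Median AGED minus MAT change (log2) of the S phase members (blue) and mitotic members (red) when each of the 16 arrays is left out in turn; left, males; right, females; dashed lines, all arrays. The female medians stay between 0.39 and 0.86 for S phase and between 0.68 and 1.39 for mitotic genes.

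Among the genes of S phase, the brightest probes were those of Pcna (the sliding clamp of DNA polymerase), Mcm6 and Mcm3 (subunits of the replicative helicase). Pcna stood at 3.60, 3.77, 3.72 and 3.63 on the MAT female arrays and at 3.92, 4.19, 3.87 and 4.27 on the AGED female arrays. The 2 groups did not overlap, and the change was small, 0.38 ± 0.12 (SE, limma, adjusted p = 0.28). In males Pcna overlapped, with a mean of 3.79 ± 0.17 (SD over 4 arrays) in MAT and 3.75 ± 0.09 (SD over 4 arrays) in AGED.

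Mcm3 stood at 0.84, 1.14, 1.14 and 0.85 in MAT females and at 1.84, 1.71, 1.67 and 2.56 in AGED females. All 4 AGED arrays lay above the MAT range, AGED female 4 furthest, and the change was 0.95 ± 0.33 (SE, limma, adjusted p = 0.33). In males the MAT arrays read 0.82, 0.84, 1.46 and 1.20 and the AGED arrays 1.39, 0.91, 1.06 and -0.54, so that AGED male 4 alone lay below the MAT range. Mcm6 read 3.27, 3.59, 3.37 and 3.22 in MAT females and 3.50, 3.96, 3.79 and 4.20 in AGED females, where AGED female 1 was below MAT female 2. Its male means were both 3.28, with an SD of 0.16 in MAT and 0.25 in AGED over 4 arrays each.

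Female groups did not overlap for 14 of the 38 members, all higher in AGED, where 5.02% of all genes were higher without overlap. Kif2c, counted here and in the female counts above, passed the filter only through the AGED female arrays, where it was high. The 5 of S phase were Pcna, Mcm3, Mcm2 (another helicase subunit), Cdc6 (which loads the helicase onto origins) and Uhrf1 (which brings the maintenance DNA methyltransferase to replicated DNA). Uhrf1 had the highest S phase change, 1.25 ± 0.40 (SE, adjusted p = 0.28): it read -1.44, -0.78, -1.31 and -1.52 in MAT and -0.60, -0.48, -0.14 and 1.18 in AGED females. Mcm2 read -1.03, -0.66, -0.89 and -0.78 in MAT females and -0.54, -0.43, -0.49 and 0.19 in AGED females. Cdc6 read -3.68, -3.26, -3.25 and -4.63 against -3.04, -2.84, -2.61 and -2.47. In Cdc6 the lowest MAT array, MAT female 4, carried much of the distance. Tyms, which makes thymidylate, was the flattest member, with a female change of 0.05 ± 0.16 (SE).

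The enzymes of deoxynucleotide supply varied among themselves. Rrm2, the regulated subunit of ribonucleotide reductase, was the 1 member whose male groups did not overlap upward (3.91% of all genes did), at -0.53, -0.05, -0.08 and -0.50 in MAT and 1.46, 0.11, 0.16 and 0.19 in AGED males. AGED male 1 made most of this difference: the change was 0.77 ± 0.34 (SE, limma, adjusted p = 0.28) and 0.44 without that array. In females Rrm2 ran from -0.42 to 0.23 in MAT and from -0.40 to 1.34 in AGED bladders. Tk1, the thymidine kinase of the salvage pathway, had a female change of 0.95 and read -0.71, 0.10, -0.72 and -0.73 in MAT and -0.48, 0.38, 0.78 and 1.05 in AGED females.

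Of the mitotic members the brightest probes were those of Birc5 (survivin, of the chromosomal passenger complex), Cdc20 (an activator of the anaphase-promoting complex) and Mki67 (the proliferation marker Ki-67). Birc5 stood at -0.72, 0.17, -0.07 and -0.36 in MAT females and at 0.78, 1.09, 1.22 and 2.76 in AGED females. It had the largest female change of all members, 1.71 ± 0.36 (SE), or 3.26-fold, with the lowest adjusted p of the members, 0.078 by limma. It passed the threshold by limma when AGED male 1 was left out (adjusted p = 0.049) and when arrays were weighted by quality (adjusted p = 0.023). A male array enters this test only through the spread estimated over all groups, and without AGED male 1 the change stayed at 1.71. The other probes of Birc5 that were kept gave changes of 1.54 and 1.61 in females, each with an exact two-sided permutation p of 0.0286, the smallest that 4 against 4 arrays allow.

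In males Birc5 overlapped on its brightest probe (-0.44, -0.20, 0.30 and -0.70 in MAT, 0.29, -0.40, -0.05 and -0.47 in AGED), and the probes disagreed. The second gave a change of -0.28, and the third, at a mean of -5.15 in MAT males, stood above background by the scanner's test on 0 of the 4 AGED male arrays.

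Mki67 read -0.77, 0.24, -0.51 and -0.44 in MAT females and -0.30, 0.27, 0.59 and 2.06 in AGED females. These overlap, and the change was 1.03 ± 0.56 (SE, limma, adjusted p = 0.55). In males it read -0.84, -0.89, -0.15 and -1.21 in MAT and 0.37, -1.15, -2.70 and -1.37 in AGED, so the AGED males held both a value above and values below the whole MAT range. Cdc20 read -0.61, -0.15, -0.60 and -0.59 in MAT and -0.70, 0.28, -0.11 and 1.32 in AGED females, and its male means were -0.68 ± 0.31 in MAT and -0.63 ± 0.52 in AGED (SD over 4 arrays each).

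**Figure D4:**
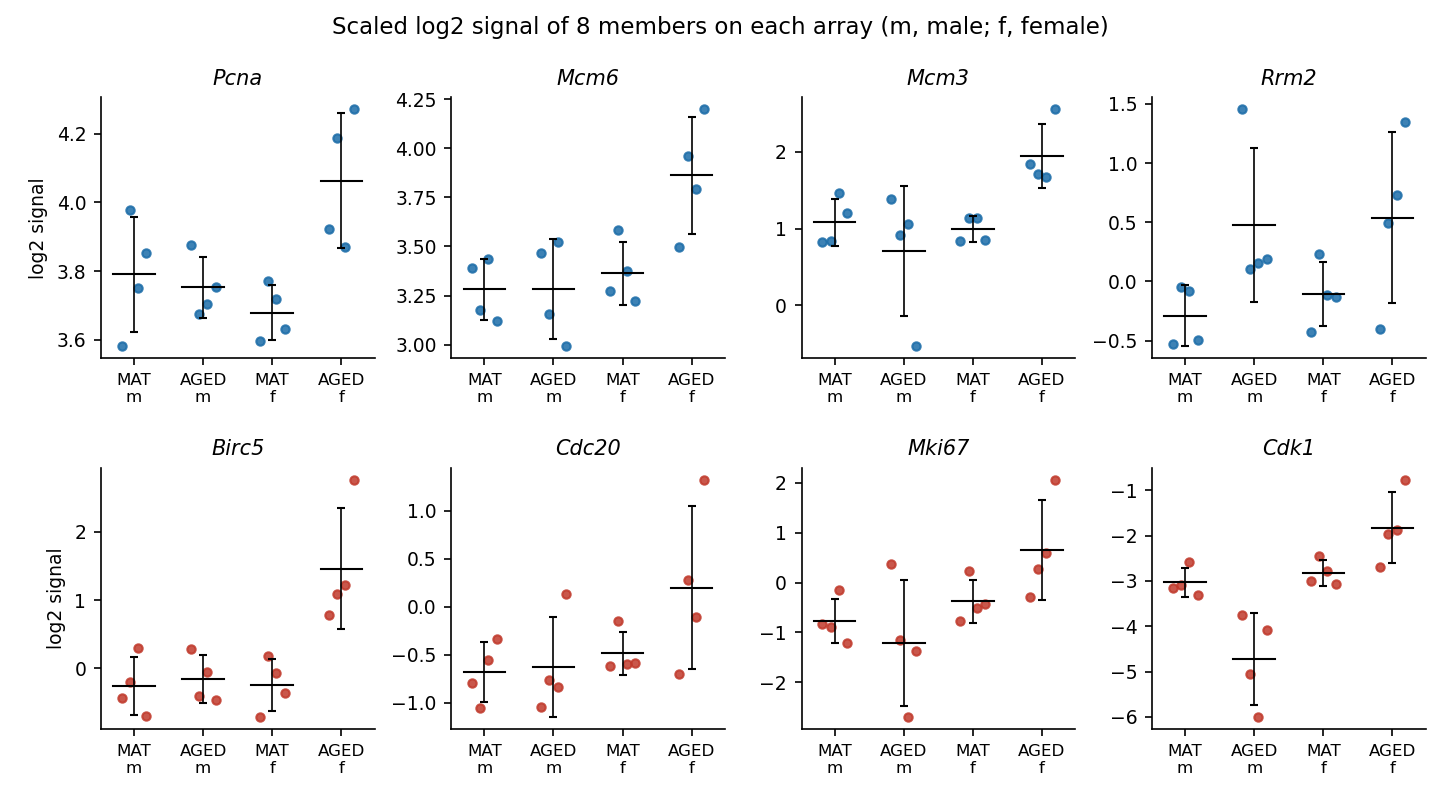
Log2 signal (0, the array's 75th percentile) of 4 S phase members (upper row) and 4 mitotic members (lower row) on each array; m, male; f, female; long bars, group means; error bars, SD over 4 arrays; each panel has its own axis. Mcm3 and Birc5 separate the 2 female groups, Cdk1 the 2 male groups, and Cdc20 and Mki67 overlap in both sexes.

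The other mitotic genes whose female groups did not overlap were Ccnb2 (cyclin B2), Plk1 and Aurka (kinases of spindle assembly), Kif20a and Kif2c (kinesins), Cdca3 (which triggers mitotic entry), Foxm1 (the transcription factor of the late cell cycle) and Melk (a mitotic kinase). Foxm1 had a change of 0.79 ± 0.20 (SE), reading -2.96, -2.50, -2.82 and -2.70 in MAT and -2.42, -1.90, -2.15 and -1.37 in AGED females. Ccnb2 read -1.20, -0.32, -0.84 and -0.78 in MAT and -0.32, 0.36, 0.26 and 1.66 in AGED females, where AGED female 1 and MAT female 2 all but touched. Plk1 read -1.36, -0.84, -0.97 and -0.99 against -0.67, -0.45, -0.56 and 0.85. Aurka read -1.71, -1.34, -1.41 and -1.71 against -1.19, -1.06, -0.95 and 0.39. For Plk1 and Aurka 3 of the 4 AGED arrays lay just above the MAT range and AGED female 4 more than 1 unit above them.

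Kif20a ran from -2.93 to -2.35 in MAT and from -2.15 to -0.20 in AGED females. Cdca3 ran from -1.50 to -0.79 and from -0.61 to 0.95. Melk ran from -3.95 to -3.08 and from -3.001 to -1.08. The highest AGED value was on AGED female 4 in all 3. Kif2c differed: its highest AGED value, -3.53, was on AGED female 3, and its probe was well above background on 2 of 4 MAT and 4 of 4 AGED female arrays.

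Cdk1, the kinase that drives mitosis, had the largest change in males. It stood at -3.16, -3.08, -2.58 and -3.31 in MAT males and at -3.75, -5.05, -6.01 and -4.08 in AGED males. The groups did not overlap, and the change was -1.69 ± 0.44 (SE, limma, adjusted p = 0.070). Its probe was well above background on 1 of the 4 AGED male arrays, so the lower values are near the floor of the measurement. By limma Cdk1 passed the threshold under median scaling (adjusted p = 0.0496) and with array weights (0.018). It also passed without AGED male 1 (0.030) and without AGED female 4 (0.049). A female array enters this test only through the spread estimated over all groups, and the change stayed at -1.69. Without AGED male 3 the change was -1.26. Of the other 2 probes for Cdk1, neither was kept: they were well above background on 2 and 3 arrays. In females Cdk1 read -3.01, -2.44, -2.78 and -3.07 in MAT and -2.69, -1.95, -1.88 and -0.76 in AGED bladders, an overlap, with a change of 1.01 ± 0.44 (SE, adjusted p = 0.44).

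Male groups did not overlap downward for 3 members, Cdk1, Cenpa and Kif11, where 4.06% of all genes did so. Cenpa, the histone variant of centromeres, read -2.25, -2.24, -2.08 and -1.85 in MAT and -3.08, -2.72, -4.24 and -2.59 in AGED males, and was well above background on all 16 arrays. Its change was -1.05 ± 0.38 (SE, limma, adjusted p = 0.19). Kif11, the kinesin that pushes the spindle poles apart, read -5.65, -5.41, -5.62 and -5.76 in MAT males. In AGED males it was well above background on 0 of 4 arrays (values from -7.77 to -5.78), so no fold is given, and with a floor on low signals its change turned from -1.26 to 0.07. Melk read -3.89, -3.14, -2.81 and -4.10 in MAT and -3.62, -3.99, -7.30 and -4.27 in AGED males. Its mean difference of -1.31 thus came with overlapping groups and a single low array, AGED male 3.

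The remaining mitotic members overlapped in both sexes. In females their changes ran from 0.59 (Bub1b, a checkpoint kinase) to 1.35 (Ccnb1, cyclin B1), with Top2a (topoisomerase II alpha) at 1.23, Ccna2 (cyclin A2) at 1.19, Nusap1 at 1.15, Ube2c (the ubiquitin-conjugating enzyme of the anaphase-promoting complex) at 1.14, Prc1 (which bundles the central spindle) at 1.27, Cenpe (a kinetochore kinesin) at 1.16, Cdca8 (borealin) at 0.87 and Tpx2 (an activator of Aurora A) at 0.86. In males the lowest of these were Top2a at -0.82 and Bub1, the partner of Bub1b, at -0.74. Top2a was well above background on 2 of the 4 AGED male arrays. Bub1 was well above background on 0 of the 4 AGED male arrays, so the size of its difference was not measured (limma, adjusted p = 0.47). The male groups overlapped: AGED male 1, at -4.76, lay above the highest MAT male value, -4.80. Of the S phase genes not yet described, Ccne1 (cyclin E1), Gins2 and Mcm5 (of the helicase) had female changes of 0.71, 0.69 and 0.91, and Cdc45, their partner, 0.30 ± 0.45 (SE).

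**Figure D5:**
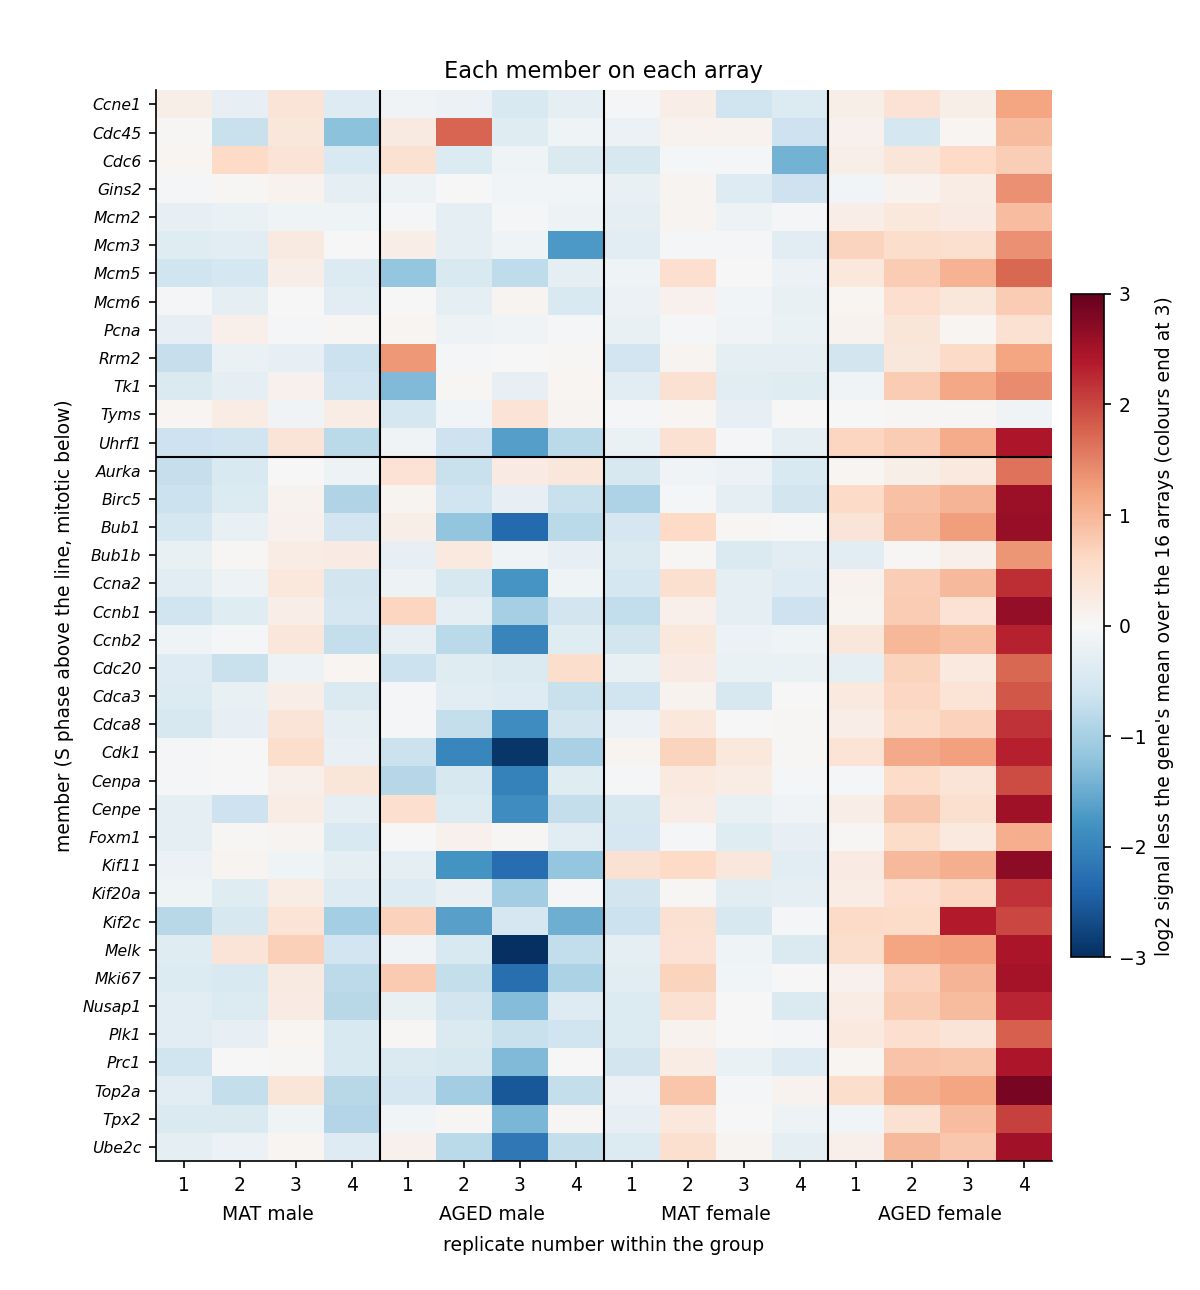
Log2 signal of each of the 38 members on each of the 16 arrays, less the gene's mean over the arrays; red, above the mean; blue, below; colours end at 3. The column of AGED female 4 is the reddest, and in AGED male 3 the mitotic genes are blue while most S phase genes are near their mean.

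A further 9 probes for 8 members were kept beside those tested. In females all 9 were higher in AGED bladders, by 0.57 to 1.61, and in males 3 were higher and 6 lower. The second Foxm1 probe (0.65 in females) was well above background on 4 arrays, 2 of them AGED female. Without the AGED females it would not have passed the filter. Male differences ran from -0.88 (Birc5) to 1.07 (Foxm1), both on dim probes, so these sizes were not measured. That Birc5 probe was well above background on 0 of 4 AGED male arrays, and that Foxm1 probe on 0 of 4 MAT male arrays.

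The other genes of the pathway, on lists chosen with earlier results known, were also mostly higher in AGED females. Of 29 further S phase genes 27 were tested, and 25 were higher in AGED females (median change 0.45); of 46 further mitotic genes 41 were tested, and 40 were higher (median 0.57). Past an unadjusted p under 0.05 were 11 of the 27 and 19 of the 41, all higher, where 4.68% of all genes were. One passed the adjusted threshold: Mcm10, which helps the helicase to start, rose in AGED females by 1.41 ± 0.24 (SE, limma, adjusted p = 0.035), reading -2.72, -1.95, -2.08 and -2.44 in MAT and -0.95, -1.17, -1.09 and -0.32 in AGED. All 4 AGED arrays lay above the MAT range, and AGED female 1, 2 and 3 read nearly alike. The call was kept in 18 of 32 other settings, with adjusted p from 0.0082 to 0.16, and was lost when any of 9 single arrays was left out. In males Mcm10 changed by -0.02 ± 0.24 (SE).

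The largest female changes of the further genes were those of the kinesins Kif18b (2.07) and Kif4 (1.77) and of the mitotic kinase Pbk (1.91), with adjusted p of 0.32, 0.13 and 0.36 by limma. The Kif18b and Kif4 probes were well above background on 1 and 2 of the 4 MAT female arrays and on 3 and 4 of the AGED female arrays. Without the AGED females neither would have passed the filter, so both entered through the group where they were high. Kif15, Sgo2a and the S phase gene Cdc7 also needed the AGED female arrays to pass. The place of these genes in the female counts above thus reflects the filter in part. In males Pole, the catalytic subunit of DNA polymerase epsilon, differed by -1.03 (adjusted p = 0.17) with a probe well above background in all 8 males. The fitted differences of Kif15 (-1.42, a spindle kinesin) and Nuf2 (-1.29, of the kinetochore) rest on dim probes, well above background on 1 and 2 of the 4 MAT male arrays and on 0 of the AGED male arrays, so no fold is given. For Kif15 a single array, MAT male 2 at -3.93, carried the MAT mean, and the other MAT male arrays read -7.12 to -6.14. In males 14 of the 27 S phase and 26 of the 41 mitotic genes were lower, with medians of -0.02 and -0.23.

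Genes that govern the exit from rest were split in direction. The list held 18 genes, all tested: cyclin D, Cdk, E2F, Rb family and DREAM subunit genes, and Myc. Of these 10 were higher and 8 lower in AGED females, with a median change of 0.03, and the same counts held in males (median 0.00). None passed the adjusted threshold in either sex by limma; at an unadjusted p under 0.05, 1 was higher and 2 lower in females (4.68% and 5.88% of all genes) and 0 passed in males. Rbl2 (p130, a repressor subunit of DREAM) had the largest change of these in females, -0.70 ± 0.19 (SE, limma, adjusted p = 0.18), chosen after its values were seen. It read -0.86, -1.02, -1.13 and -0.64 in MAT and -1.80, -1.56, -1.48 and -1.63 in AGED females, with no overlap. Of the 18 genes, 3 were lower without overlap in females (Rbl2, Rb1 and E2f5) and 1 higher (Lin54). Over all 26781 genes, 1549 were lower and 1345 higher without overlap.

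Levels of other genes stood beside these results, as means of centred log2 signals over each list. Interferon response genes (9 of 10 tested) were at -0.95 to -0.13 on MAT female and 1.12 to 1.76 on AGED female arrays, highest on AGED female 4, and at -0.47 to 0.38 and -1.51 to 0.69 on MAT and AGED male arrays, lowest on AGED male 3. Macrophage markers (8 of 9) were at -0.31 to -0.074 in MAT and -0.065 to 0.58 in AGED females, which all but touched without overlap. They were again highest on AGED female 4 among females, and at -0.15 to 0.07 in MAT and -0.23 to 0.60 in AGED males. In females 7 of these 8 markers were higher in AGED, C1qa and C1qb most (0.80 each), and 1, Csf1r, was lower (-0.08). Fibroblast markers (7 of 7) were highest of all on AGED female 4 (0.55) and lowest on AGED male 3 (-0.82), where the other 14 arrays ran from -0.56 to 0.32. The same 2 arrays are thus the extremes for the mitotic genes, for interferon response genes and for fibroblast markers. AGED male 3 was also the lowest of all arrays for T cell (-0.94), endothelium (-0.39) and adipocyte markers (-3.51). AGED female 4 was not the highest for any of these last lists, and it was the lowest of all arrays for Schwann cell markers (-0.63).

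T cell markers (8 of 8) ran from 0.15 to 0.64 in MAT and from -0.65 to 0.85 in AGED females, and from -0.87 to -0.33 in MAT and from -0.94 to 1.97 in AGED males. B cell markers (6 of 7; Pax5 on 1 array) ran from 0.41 to 1.83 in MAT and from -1.11 to 1.24 in AGED females, and from -2.36 to 0.37 and from -1.32 to 0.34 in MAT and AGED males. For both of these lists the MAT and AGED ranges overlapped in females. Basal urothelium markers (5 of 5) overlapped between MAT (-0.41 to -0.13) and AGED females (-0.18 to 0.22) and between MAT (-0.19 to 0.32) and AGED males (0.09 to 0.53). Neutrophil markers (5 of 6) did not overlap in females, at -1.36 to -0.36 in MAT and -0.19 to 0.90 in AGED, where AGED female 1 was highest, and ran from -0.91 to 0.14 in MAT and 0.09 to 1.504 in AGED males. Schwann cell markers (6 of 6) did not overlap in females in the other direction, at 0.19 to 0.41 in MAT and -0.63 to -0.04 in AGED, lowest on AGED female 4, and overlapped in males (-0.05 to 0.35 in MAT, -0.50 to 0.47 in AGED).

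Lists of plasma cell (6 of 6), erythroid (5 of 6), endothelium (6 of 6), adipocyte (5 of 5), skeletal muscle (4 of 6), superficial urothelium and smooth muscle markers each overlapped between MAT and AGED arrays in both sexes, as did the 1 of 6 male accessory gland markers tested. Adipocyte markers had the widest ranges of these, from 0.98 to 2.78 in MAT and 0.10 to 1.17 in AGED females and from -3.25 to 0.65 and -3.51 to -0.10 in MAT and AGED males. The part of these cells and responses in the members' levels was not tested.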

How the data were processed

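Bladder RNA of 16 mice (4 per group) was measured on 1-colour arrays. The deposited scanner files hold spot intensity values that the authors had background-subtracted with Agilent Feature Extraction (10.7.3.1 in the file headers, 9.1 in the submitters' processing notes). The authors' log2 table of the same arrays served as an alternative, and 0 columns were left without a sample. Controls and spots flagged as outliers were left out, and repeated spots were averaged. The log2 of the averaged processed signal was then taken less the 75th percentile of the array. Probes well above background on at least 4 arrays were kept (36972 of 55681), and the probe with the highest mean stood for a gene. Names came from RefSeq through the accession of the array's design (26582 probes named).

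The 4 group means were fitted to all 16 arrays with limma 3.58.1 in R 4.3.3 (12 residual degrees of freedom), with Benjamini-Hochberg adjustment over all 26781 genes. A gene was called at an adjusted p under 0.05 and a change of at least 2-fold, and the difference between the sexes at an adjusted p under 0.05. The fit was tested on simulated data. Their number, not a read depth, limits the precision of arrays.

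The members, the pathway lists and the marker lists were chosen with earlier results of these data known. Single-array values were to be given for members whose groups do not overlap in a sex and for the 3 S phase and 3 mitotic members of highest mean signal. Those of Tk1 and Melk in males were added after they were seen. Of other pathway genes, those called and the 3 with the largest change per sex were named. Scaling, background correction, filter, floor, probe choice, test, weights, trend, block and left-out arrays were varied. One marker list is not reported here.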

Additional observations from a re-analysis of the deposited data

Results flagged for a closer look

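In 8 of 152 sets of 4 arrays (5.26%; 38 members in 4 groups), the highest or lowest array lay apart from the rest, with a gap to its nearest neighbour above 0.829 of the range of its group. Chance gives about 1 in 20 for a single set. The members share the same 16 arrays, so the sets are not independent and their number cannot be set against chance. Within their groups, AGED female 4 was highest for 36 of the 38 members and MAT female 2 for 36. AGED female 4 was the high array for Plk1 (0.85 against -0.45 on the nearest, gap 0.853 of the range), Aurka (0.39 against -0.95, 0.846) and Mcm2 (0.19 against -0.43, 0.84). MAT female 2 was the high array for Tk1 (0.10 against -0.71, 0.972) and Cdc20 (-0.15 against -0.59, 0.951). In AGED males, Rrm2 was high on array 1 (1.46 against 0.19, 0.938), Tpx2 low on array 3 (-4.23 against -2.95, 0.905) and Aurka low on array 2 (-1.91 against -0.997, 0.833).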

How the results depend on the processing

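All 38 members stayed higher in AGED females in every setting tried in which they were measured, except Tyms (-0.0085) without MAT female 3. Members called in males numbered 0, and 1 with median scaling, 1 with array weights and 3 by the methods' t-test, unadjusted. In females they numbered 0, and 1 with array weights and 8 by that t-test. For the difference between the sexes they numbered 0, and 2 with normexp and 1 with array weights. Members higher in males at an unadjusted p under 0.05 numbered 1, and 2 with no filter, 2 with the mean of probes, and 0 by the t-test, with array weights and with the replicate block. Those lower numbered 3, and over the other settings with all arrays from 1 (filter on all 16 arrays, which left 29 members) to 7 (array weights). Those higher in females numbered 32, and over these settings from 15 (t-test) to 35 (array weights).

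Over all genes, 227 were called in males (74 higher, 153 lower), against 759 with normexp (64 and 695), 551 with no filter (395 and 156), 496 by the t-test unadjusted and 0 adjusted, 469 with no fold limit and 14 with each sex fitted alone. In females 50 were called, against 18 with no filter, 393 by the t-test unadjusted and 1 adjusted, 94 with each sex alone and 197 with array weights. For the difference 40 were called, against 451 with normexp, 76 with the filter on all 16 arrays, 6 with no filter, 25 with the mean of probes, 280 with array weights and 69 with a variance trend. Normexp moved the median of all genes to 0.118 in males. The cause of these shifts was not tested. Replicate numbers did not pair the arrays (correlations of same-numbered arrays from -0.147 to 0.0682), and with the number as a replicate block 3 genes were called in females and 14 for the difference. Slide could not be fitted beside the groups.

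Male changes near 0 reversed: Mcm6 from 0.00 to -0.060 (median scaling), -0.0018 (the authors' table) and -0.14 (array weights), Cdc20 from 0.05 to -0.0072 (median scaling), Pcna from -0.04 to 0.17 (normexp), Birc5 from 0.10 to -0.0058 (normexp), -0.35 (mean of probes) and -0.17 (array weights). The male difference of Kif11, among the largest, reversed from -1.26 to 0.066 with a floor on low signals. The male S phase median turned from -0.07 to 0.07 with normexp.

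Leaving out single arrays gave 122 to 378 genes called in males, 1 to 127 in females and 6 to 278 for the difference, and 0 to 1 members called in each. Members higher in males then numbered 0 to 2, lower 1 to 6, and higher in females 19 to 36. The S phase median ran from 0.39 to 0.86 in females and from 0.40 to 0.89 for the difference. Male changes ran from -0.60 to 0.039 for Mcm3, -0.077 to 0.10 for Mcm6, -0.11 to 0.024 for Pcna, -0.97 to 0.056 for Mki67, -0.20 to 0.19 for Cdc20 and -0.046 to 0.29 for Birc5, and Tyms in females from -0.0085 to 0.094. Low signals of Kif11, Bub1, Cdk1, Kif2c and Top2a limit what their changes can show.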
